A study of Mus musculus with 4 samples.

Results

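The cytosolic ribosomal protein genes were described in liver RNA-seq of *Usp21* knockout (KO) and wild-type (WT) mice. A gene was counted as a member when its symbol had the form of a ribosomal protein name (Rpl, Rps or Rplp with a number, an optional letter and an optional final digit) and its mean over the 4 libraries reached 1 TPM (the relative abundance of a gene's transcripts, corrected for their length). Of the 35739 genes in the table, 88 had such a symbol and 82 passed the minimum. The 6 that did not were *Rpl3l*, *Rpl10l*, *Rpl32l*, *Rpl39l* and *Rps4l*, which were listed at 0 in all 4 libraries, and *Rpl6l*, with a mean of 0.168 TPM. The members comprised 30 small subunit genes, 43 large subunit genes, the 3 stalk genes *Rplp0*, *Rplp1* and *Rplp2*, and 6 paralogs or copies (*Rpl22l1*, *Rpl7l1*, *Rps27l*, *Rps12l1*, *Rps3a2* and *Rps3a3*). In the GENCODE M21 annotation of GRCm38, 79 of them were protein coding and 3 were processed pseudogenes.

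WT replicates 2 and 3 and *Usp21* KO replicates 1 and 3 were compared, with 1 liver library per mouse. The KO was constitutive: Cre recombinase had excised coding exons between loxP sites, in a line derived from 129/Sv embryonic stem cells and crossed to C57BL/6. All mice were littermates of 10 to 11 weeks on a normal diet, with no other treatment. The targeted gene *Usp21* stood at 4.07 and 6.29 TPM in WT and at 1.64 and 2.93 TPM in KO, and exons outside the deletion can still collect reads.

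Ribosomal proteins assemble with ribosomal RNA into the small subunit, which reads the messenger RNA, and the large subunit, which joins amino acids. Each protein is needed in about equal number, and their messenger RNAs are short, abundant and start with a run of pyrimidines (the TOP motif) through which mTORC1 signalling and Larp1 control their translation. Ribosomal protein messenger RNAs have also been copied back into the genome many times, which has left processed pseudogenes with almost the same sequence.

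That near identity can bear on the values. Salmon, the program behind the TPM, divides reads that match several transcripts between them. A gene was taken as a copy of a member when at least 50% of its 31-base stretches were shared with that member. At least 1 such copy was found for 71 members, and for 30 members a copy, or another member, reached a mean of 1 TPM. The 31 expressed copies outside the members were mostly annotated as processed pseudogenes. The sequences below compare some members with copies, for pairs whose values are given further on. Each is a stretch of 30 bases of coding sequence from GENCODE M21 (GRCm38), 5′ to 3′, with differing bases in capitals, and positions in substitutions are counted from 1 at the 5′ end of the stretch.
Rpl9: tcacgctgggcttccGatacaagatgcggt
Rpl9-ps6: tcacgctgggcttccAatacaagatgcggt
Rps3a1: agtAaaaatgctgaagaaacccaagtTtga
Rps3a2: agtTaaaatgctgaagaaacccaagtCtga
Rps27 and Rps27rt: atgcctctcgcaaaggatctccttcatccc

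*Rpl9* (chr5:65388364-65391444, reverse strand) and *Rpl9-ps6* (chr19:32465865-32466578) differed at 1 of 579 coding bases, shown as G16A. *Rps3a1* (chr3:86137940-86142702, reverse strand) and *Rps3a2* (chr14:88123017-88123808, reverse strand) differed at 4 of 792 aligned bases, and A4T and T27C are 2 of them. *Rps3a3* (chr13:108670603-108671397, forward strand) differed from *Rps3a1* at 9 of 795 bases. The coding sequences of *Rps27* (chr3:90212522-90213651, reverse strand) and *Rps27rt* (chr9:114982366-114982739) were identical over all 255 bases.

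The start sites of the members carried the pyrimidine run more often than promoters at large. Promoter windows of 300 bases from RefSeq (GRCm38.p6) were found for 59 members, with 70 windows in all. A C followed by at least 4 pyrimidines was sought on the same strand as the gene, from 10 bases before to 15 bases after the annotated start. It was present in 54.3% of member windows and in 30.7% of all 32851 windows. The letters CCGGAAG, the core of an ETS factor site, were found on either strand in 35.7% of member windows and 8.86% of all windows. AAGATGGC, the core of a YY1 site, was found in 11.4% against 2.75%, and TATAAA in 7 of the 70 against 13.6%. Start sites of 3 members from different parts of the ribosome are shown, with the run in capitals.
Rps6: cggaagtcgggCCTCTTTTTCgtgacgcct
Rpl13a: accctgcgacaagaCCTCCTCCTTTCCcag
Rplp2: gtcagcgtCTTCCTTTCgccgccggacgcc

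These lie at chr4:86857350-86857379 (reverse strand), chr7:45128728-45128757 (reverse strand) and chr7:141447639-141447668 (forward strand), respectively. The genes themselves are scattered over 19 chromosomes, with 15 members on chromosome 7. Their median transcript length was 630 bases, compared with 1240 bases for the other tested genes.

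The members were among the abundant messenger RNAs of these livers. Their summed abundance came to 26215 and 27490 TPM in WT against 31596 and 26422 TPM in KO, or 2.63%, 2.75%, 3.17% and 2.65% of each library's total. KO replicate 1 was the highest, whereas KO replicate 3 fell inside the WT range. Mean levels of single members ran from 5.94 TPM (*Rpl12*) to 1091 TPM (*Rpl13a*), with a median of 317 TPM.

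**Figure D1:**
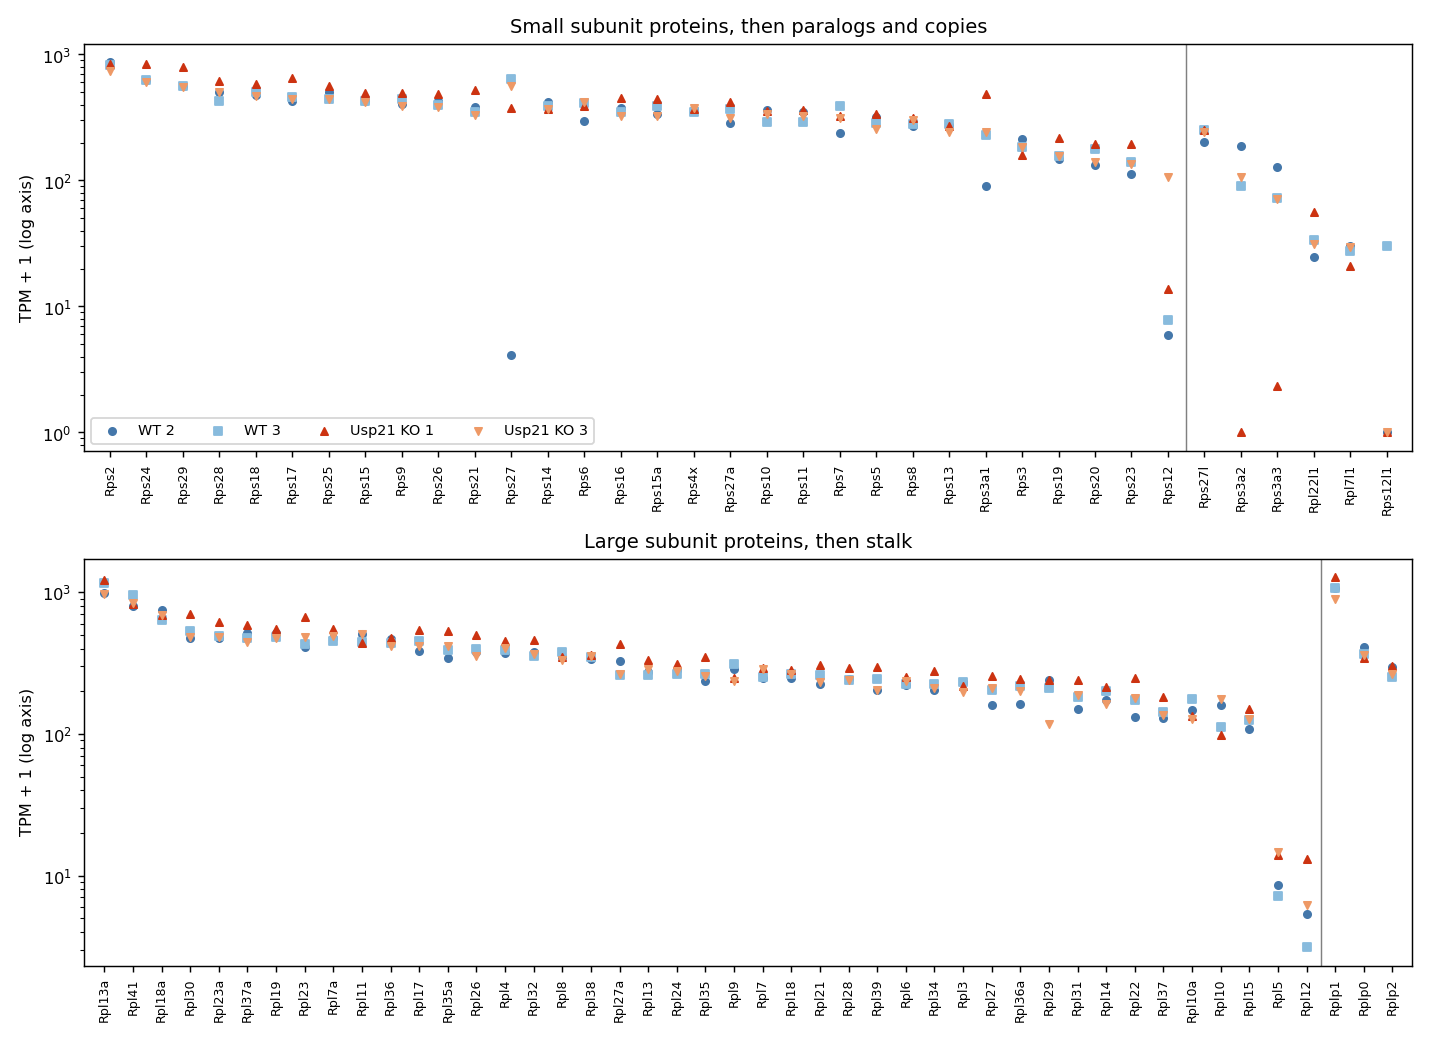
TPM + 1 on a log axis for each of the 82 members, ordered by mean within each class, with 1 symbol per library (circles and squares WT, triangles KO). Most members lie within a narrow band in all 4 libraries, while *Rps27* in WT replicate 2, *Rps12*, *Rps3a1* to *Rps3a3*, *Rpl5* and *Rpl12* stand apart.

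The most abundant large subunit gene was *Rpl13a*, with 983 and 1171 TPM in WT against 1229 and 979 TPM in KO. In the small subunit, *Rps2* was the most abundant, with 863 and 824 TPM in WT against 845 and 740 TPM in KO. *Rplp1*, which pairs with *Rplp2* in the stalk that recruits elongation factors, had 1075 and 1074 TPM in WT against 1281 and 897 TPM in KO. The genotypes overlapped for *Rpl13a* and *Rplp1*, and for *Rps2* as well. *Rplp0*, the base of the stalk, had 413 and 364 TPM in WT against 344 and 362 TPM in KO, and *Rplp2* had 294 and 251 TPM in WT against 300 and 263 TPM in KO. For *Rplp0* both KO values lay below both WT values, by a small margin (log2 fold change -0.14 with standard error, SE, 0.17, limma adjusted p = 0.772).

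The genotypes were compared with limma on log2(TPM + 1) over the 9581 genes whose mean reached 1 TPM, as a two-sided test, and p was adjusted by Benjamini-Hochberg over all of them. None of the 82 members passed an adjusted p of 0.05, against 0.0835% of all tested genes (8 genes). By unadjusted p, 3 members were under 0.05 (*Rpl5*, *Rps12* and *Rpl12*), all higher in KO, where 8.45% of tested genes were higher and 2.04% lower at that level. The quasi-likelihood test of edgeR and DESeq2 were also run on reads recovered from the authors' CPM table, for the 15 members that could be tested. Of these, 0 passed and 0 had an unadjusted p under 0.05, where edgeR called 12 of 5146 genes and DESeq2 called 1. Only 4 of the 15 were above 0 in every library, so these tests could detect little for the members and add no support. With 2 libraries per genotype, an exact permutation test of 1 gene cannot give a p below 0.333.

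Both KO libraries lay above both WT libraries for 18 of the 82 members, compared with 34.4% of all tested genes. Both lay below for 8 members, compared with 10.9%. The median log2 fold change was 0.11 over the members and 0.15 over all tested genes, and 60 members had a value above 0, against 66.7% of tested genes. A difference of at least 2-fold was found for 7 members, against 3.68% of tested genes, and all but *Rpl12* of these had an expressed near-identical copy. Of the 18 higher members, 15 belonged to the large subunit, in which 34.9% of the 43 genes were higher without overlap, a share near the background. The direction of the median depended on scaling: it was -0.020 with upper quartile scaling and -0.062 with median ratio scaling, which moved the median of all tested genes to 0.034 and -0.0011.

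Most members were highest in the same library. Each member's log2(TPM + 1) was compared with its mean in the other 3 libraries. In KO replicate 1, 66 members were above the others, with a median deviation of 0.27, compared with 0.20 for all tested genes. In KO replicate 3, 57 members were below the others, with a median of -0.10, compared with 0.010 for all tested genes. The medians in WT replicates 2 and 3 were -0.12 and -0.049, compared with -0.097 and -0.10. KO replicate 1 held the highest value of 56 members (68.3%), compared with 45.9% of all tested genes.

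**Figure D2:**
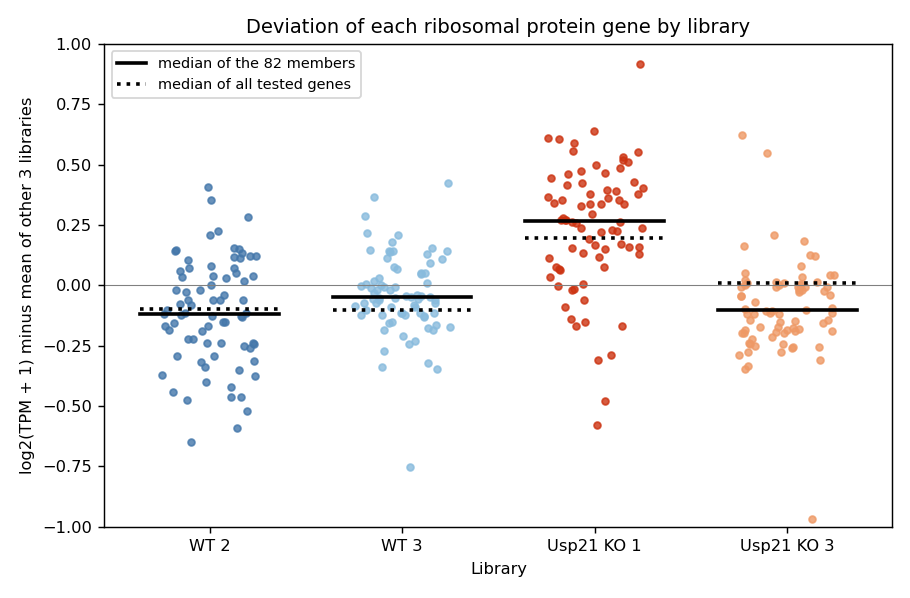
Deviation of each member's log2(TPM + 1) from its mean in the other 3 libraries, with 1 point per member, a solid line at the members' median and a dotted line at the median of all tested genes. KO replicate 1 sits above the other libraries (median 0.27), KO replicate 3 sits at -0.10, and 7 members have a point outside the axis limits of -1 and 1.

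Without KO replicate 1 the median of the members was -0.011, and without KO replicate 3 it was 0.25. The members higher in KO without overlap numbered 58 of 82 without KO replicate 3, where 57.4% of all tested genes were higher, and those lower numbered 31 without KO replicate 1, where 28% of all tested genes were lower. With 1 KO library left, the absence of overlap is easier to meet. Some sums of cell type markers also differed from WT in both KO libraries. In KO replicate 1, those of Kupffer cells, cholangiocytes and stellate cells lay outside the WT range, and that of lymphocytes lay just above it. Those of hepatocytes and of erythroid, endothelial and cycling cells lay inside it. In KO replicate 3, every sum except that of cycling cells lay outside the WT range. The 6 Kupffer cell markers, all above 0 in every library, summed to 172 and 196 TPM in WT, 91.1 TPM in KO replicate 1 and 234 TPM in KO replicate 3. The 5 cholangiocyte markers summed to 14.6 and 15.9 TPM in WT and to 37.9 and 24.5 TPM in KO. Most of this sum was *Spp1*, with 13.2 and 12.7 TPM in WT against 33.4 and 20.7 TPM in KO. The 5 hepatocyte markers summed to 69023 and 54485 TPM in WT and to 56730 and 47274 TPM in KO. They ran in both directions, from *Alb* (log2 fold change -0.35) to *Tat* (0.79). The 8 lymphocyte markers stayed between 3.44 and 5.90 TPM and the 4 cycling markers between 0.664 and 4.10 TPM. The erythroid (467 to 650 TPM), endothelial (31.6 to 49.6 TPM) and stellate (50.6 to 94.6 TPM) sums are given for the same comparison. Their part in the result was not tested, and in bulk liver a change in cell numbers and a change in RNA per cell cannot be told apart.

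Most of the largest differences between genotypes were found for members with an expressed near-identical copy. *Rps27*, a small subunit protein with a zinc finger, had 3.10 and 632 TPM in WT against 375 and 565 TPM in KO. *Rps27rt*, its copy with identical coding sequence, had 600 and 0 TPM in WT against 349 and 0 TPM in KO. Their sum was 603 and 632 TPM in WT against 724 and 565 TPM in KO, so the WT libraries were close in the sum and far apart in either gene alone. The log2 fold change of *Rps27* was 3.18 alone (SE 2.18, limma adjusted p = 0.603) and 0.050 for *Rps27* summed with its copies (SE 0.20, limma adjusted p = 0.933).

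The division of the signal also differed between libraries in the *Rps3a* set, whose protein sits on the small subunit near the messenger RNA exit. *Rps3a1* had 89.5 and 227 TPM in WT against 486 and 240 TPM in KO, whereas the pseudogene *Rps3a2* had 187 and 89.5 TPM in WT against 0 and 106 TPM in KO. The pseudogene *Rps3a3* had 127 and 71.6 TPM in WT against 1.32 and 70.5 TPM in KO. In KO replicate 1 almost all of the signal stood under *Rps3a1*, whereas in WT replicate 2 *Rps3a1* was the lowest of the set. Summed with their copies, the log2 fold change was 0.19 (SE 0.17, limma adjusted p = 0.691), compared with 1.26, -3.66 and -2.91 for *Rps3a1*, *Rps3a2* and *Rps3a3* alone. The fold changes of the pseudogenes rest on KO replicate 1. Without it they were -0.29 for *Rps3a2* and -0.43 for *Rps3a3*.

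*Rps12*, which was low in 3 libraries, was a further case. It had 4.92 and 6.84 TPM in WT against 12.8 and 106 TPM in KO, while its copy *Rps12-ps3* (chr19:59322290-59322783) had 409 and 355 TPM in WT against 582 and 238 TPM in KO. The member *Rps12l1* was listed at 0 in every library but WT replicate 3, where it had 29.1 TPM. *Rps12* alone had a log2 fold change of 2.50 (SE 0.91, limma adjusted p = 0.464), and the summed set had 0.17 (SE 0.28, limma adjusted p = 0.827).

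In other pairs a copy was at 0 in both libraries of a genotype. *Rpl9*, a large subunit protein, had 288 and 312 TPM in WT against 246 and 235 TPM in KO, so that neither KO value reached the WT range. *Rpl9-ps6* was at 0 TPM in each WT library and at 93.9 and 91.1 TPM in KO. The sum of the pair was 288 and 312 TPM in WT against 340 and 327 TPM in KO, so that the KO libraries lay below the WT libraries for *Rpl9* alone and above them for the sum. *Rps29*, a small zinc finger protein of the small subunit, had 556 and 558 TPM in WT against 796 and 551 TPM in KO. Its copy *Gm14303* (chr2:172509521-172509691), identical to *Rps29* over 171 coding bases, had 122 and 94.2 TPM in WT but 0 TPM in each KO library. The sum of this pair was 678 and 652 TPM in WT against 796 and 551 TPM in KO, and *Rps29* alone was no higher in KO replicate 3 than in WT. *Rpl9-ps6* and *Gm14303* both passed the adjusted threshold (adjusted p = 0.000969 for each, limma). They were 2 of the 31 expressed copies and 2 of the 8 genes called among all tested genes. Each reached the minimum of 1 TPM only through the genotype in which it was above 0, so its p gives no independent support for a difference. Both calls rest on 2 libraries per genotype.

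**Figure D3:**
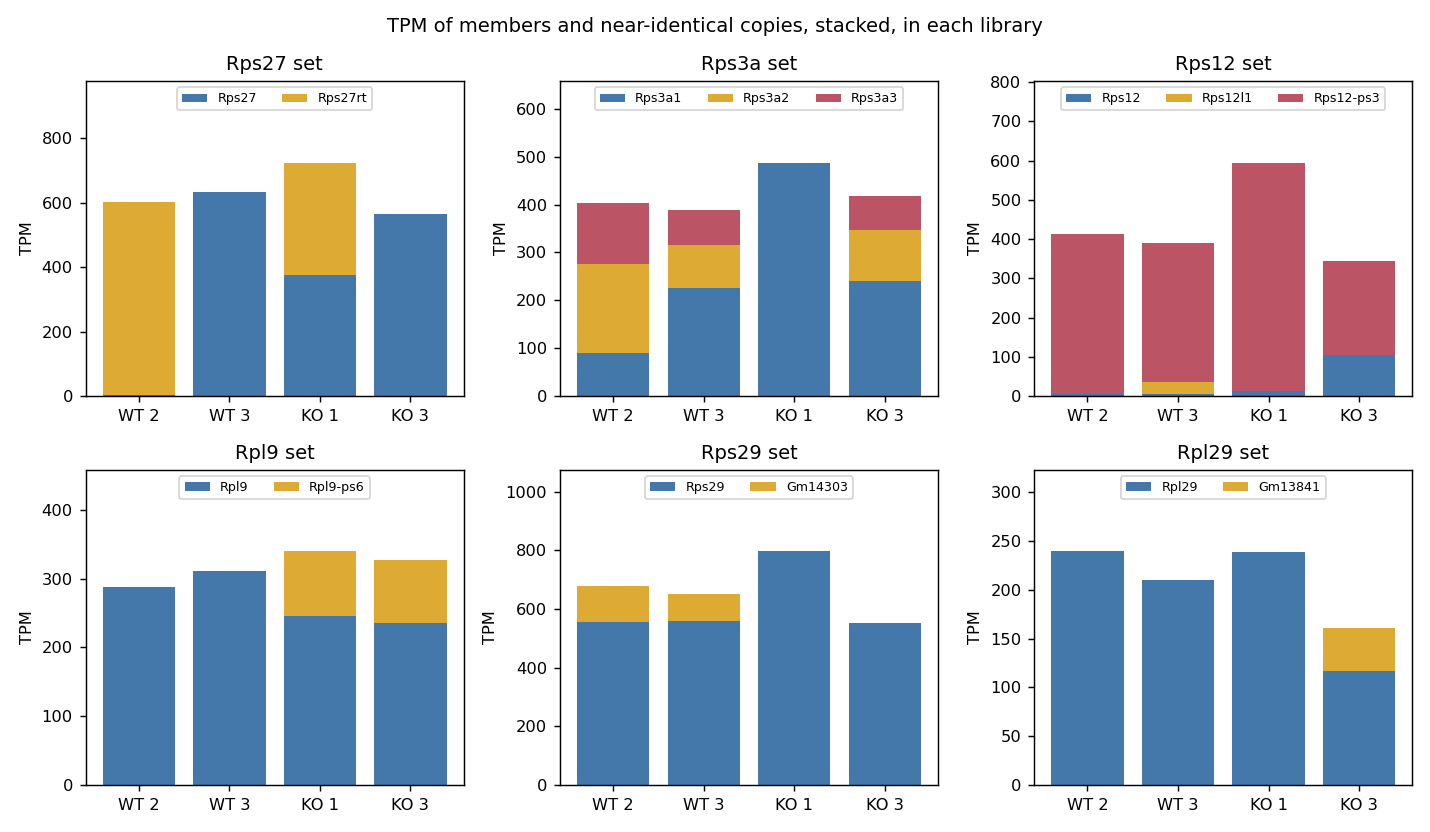
Stacked bars of TPM in each library for 6 sets of a member with its near-identical copies, with the vertical axis starting at 0. The shares of the parts differ between libraries, for example *Rps27* and *Rps27rt* in WT replicate 2, while the height of the *Rps27* bar stays between 565 and 724 TPM.

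Summing each member with its copies left 79 sets. This way of counting was chosen after the data had been seen. The members with a log2 fold change beyond 0.5 in either direction numbered 9 alone, and the sets numbered 3. The range narrowed from between -3.66 and 3.18 to between -0.22 and 1.08. The highest library exceeded the lowest by more than 2-fold for 10 members and for 4 sets. Summing also widened some sets. The fold between the highest and lowest library rose from 1.36 to 2.09 for *Rpl21* and from 1.32 to 1.75 for *Rpl14*. No set passed an adjusted p of 0.05, where 0.0628% of the 9550 genes tested in this way did, and 1 set (*Rpl5*) had an unadjusted p under 0.05, where 10.6% did. Both KO libraries lay above both WT libraries for 17 sets (21.5%) and below for 5 (6.33%), against 34.4% and 10.9% of all tested genes. Of the 18 members that were higher alone, 14 were also higher when summed, and of the 8 that were lower, 5 were also lower (*Rpl3*, *Rplp0*, *Rps3*, *Rps13* and *Rps14*). The summed sets totalled 31268 and 31261 TPM in WT against 37500 and 29937 TPM in KO, with KO replicate 1 the highest, as for the members alone. KO replicate 3 lay below both WT libraries in this sum, whereas it fell inside the WT range for the members alone.

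**Figure D4:**
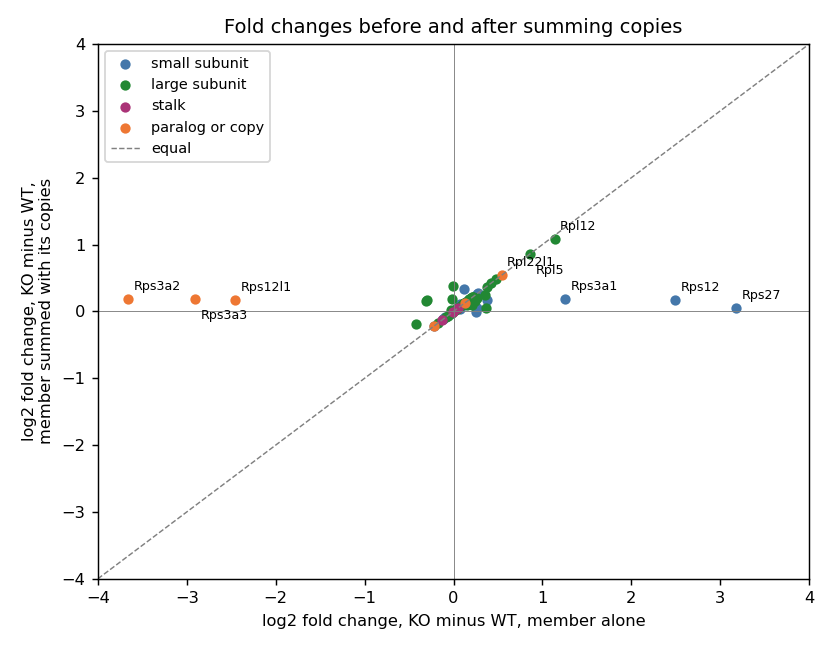
Log2 fold change, KO minus WT, of each member alone (horizontal axis) and summed with its near-identical copies (vertical axis), with colours for the class and a dashed line of equality. *Rps27*, *Rps12*, *Rps3a1*, *Rps3a2*, *Rps3a3* and *Rps12l1* lie far from the line and near 0 on the vertical axis, whereas *Rpl12* (1.08) and *Rpl5* (0.86) stay on the line.

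*Rpl5* and *Rpl12* had no expressed copy in the annotation, so that summing could change little. *Rpl5*, which with *Rpl11* and a ribosomal RNA forms the particle that can bind Mdm2, had 7.61 and 6.18 TPM in WT (mean 6.90 ± 1.01, SD, n = 2) and 13.0 and 13.7 TPM in KO (13.3 ± 0.488, SD, n = 2). Neither KO value reached down to the WT range (log2 fold change 0.86 with SE 0.21, limma adjusted p = 0.461), and the fold change stayed between 0.73 and 1.00 with each library left out. By CPM the genotypes overlapped for *Rpl5*, with 15.4 and 64.2 CPM in WT against 40.1 and 73.8 CPM in KO. A read stood for 7.68 and 9.17 CPM in WT and for 6.68 and 9.22 CPM in KO, so these values rest on few reads. By CPM, 67 of the 82 members were at 0 in every library, but *Rpl5* was among the 4 that were above 0 in every library. Which of the measures is closer to the level of *Rpl5* was not tested. *Rpl12*, a protein of the stalk base, had 4.35 and 2.12 TPM in WT against 12.1 and 5.17 TPM in KO (log2 fold change 1.14 with SE 0.46, limma adjusted p = 0.473). Without KO replicate 1 the log2 fold change of *Rpl12* was 0.59. Both genes were far below the median of 317 TPM over the members. *Rpl11*, the partner of *Rpl5*, had 508 and 444 TPM in WT against 436 and 504 TPM in KO. The search for copies covered annotated transcripts only: 613 genes of the table had no sequence among them, and 5 of those, all without a symbol, had a mean of at least 100 TPM. Whether these hold reads of *Rpl5* or *Rpl12* was not tested.

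For other members the pseudogenes named after them held a large share of the signal. Those of *Rpl10* held 81.4% of the summed TPM of gene and pseudogenes, those of *Rps23* 70.8%, those of *Rpl15* 59.2%, those of *Rpl31* 58.8% and those of *Rpl36a* 57.4%. The shares for *Rpl28*, *Rpl10a*, *Rps16*, *Rps6* and *Rpl14* were 51.0%, 47.7%, 46.5%, 42.4% and 24.0%. Copies under other names are not in these shares. With near-identical copies of any name counted, *Rpl27a*, for example, held 35.2% to 42.9% of its set's TPM and *Rps20* held 50.7% to 72.7%. *Rps6*, the substrate of S6 kinase, had 294 and 410 TPM in WT against 389 and 417 TPM in KO, and the genotypes overlapped. *Rpl10a* had 147 and 175 TPM in WT against 132 and 127 TPM in KO, and its log2 fold change of -0.30 alone was 0.17 when summed with its copies. The level of each of these genes alone is therefore uncertain. Over all 297 genes named as ribosomal protein pseudogenes, the sum was 3356 and 2817 TPM in WT against 4248 and 2757 TPM in KO, with KO replicate 1 the highest again.

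Several named members had no expressed copy. *Rps19*, the gene most often mutated in Diamond-Blackfan anaemia, had 147 and 157 TPM in WT against 216 and 154 TPM in KO, so only KO replicate 1 was above both WT libraries. The paralog *Rps27l*, a p53 target, had 199 and 253 TPM in WT against 252 and 240 TPM in KO. *Rpl22l1*, the paralog of *Rpl22*, had 23.8 and 32.5 TPM in WT against 55.0 and 30.4 TPM in KO (log2 fold change 0.54 with SE 0.33, limma adjusted p = 0.557), with KO replicate 1 alone above the rest. *Rpl22* itself had 131 and 173 TPM in WT against 248 and 178 TPM in KO. Unlike these, *Rpl29* has an expressed copy. It had 239 and 210 TPM in WT against 239 and 117 TPM in KO, and its lower KO mean came from KO replicate 3, where the copy *Gm13841* had 44.3 TPM and was listed at 0 elsewhere. The sum with this copy was 161 TPM in KO replicate 3, still below the 210 to 239 TPM of the other libraries.

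A few ribosomal proteins carry other symbols. *Rpsa*, *Fau*, *Rack1* and *Rpl36al* had a median log2 fold change of 0.022, from *Rpsa* (-0.043) to *Rack1* (0.10), and the genotypes overlapped for all 4. *Rack1*, a scaffold protein of the small subunit, had 233 and 238 TPM in WT against 279 and 229 TPM in KO. The 79 tested genes for mitochondrial ribosomal proteins had a median of 0.045, with 16 higher (20.3%) and 10 lower (12.7%) without overlap, against 34.4% and 10.9% of all tested genes, from *Mrpl54* (-0.36) to *Mrps6* (0.66). No gene of these lists, or of those that follow, passed an adjusted p of 0.05 in limma.

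Other genes of translation were set beside them. The 16 messenger RNAs outside the ribosome that carry a TOP motif had a median of 0.18, with 10 higher and 0 lower without overlap, where 34.4% of all tested genes were higher and 10.9% lower. Among them *Pabpc1*, the poly(A) binding protein, had 118 and 106 TPM in WT against 149 and 173 TPM in KO, and *Nap1l1*, a histone chaperone, had 26.7 and 29.5 TPM in WT against 48.2 and 42.0 TPM in KO. *Eif3f* was the lowest of this list (-0.10). The 43 tested ribosome biogenesis genes had a median of 0.22, with 16 higher (37.2%) and 3 lower (6.98%), close to the shares of all tested genes (34.4% and 10.9%), from *Gar1* (-0.97), a component of pseudouridylation particles, to *Nle1* (1.24), an assembly factor of the large subunit. The 34 translation factors had a median of 0.017, with 14 higher (41.2%) and 5 lower (14.7%), against the same 34.4% and 10.9%, from *Eif2b3* (-0.54) to *Eif3a* (0.66). Of 27 genes of mTORC1 and of TOP regulation, 22 were tested, and 10 were higher (45.5%, against 34.4% of all tested genes) and 0 lower (against 10.9%), with a median of 0.055. *Larp1*, which binds TOP messenger RNAs, had 12.2 and 13.8 TPM in WT against 20.4 and 19.0 TPM in KO, *Larp4* was the highest of that list (0.79) and *Rps6kb2* the lowest (-0.31). None of the 6 listed noncoding TOP host genes was found in the table under its symbol.

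**Figure D5:**
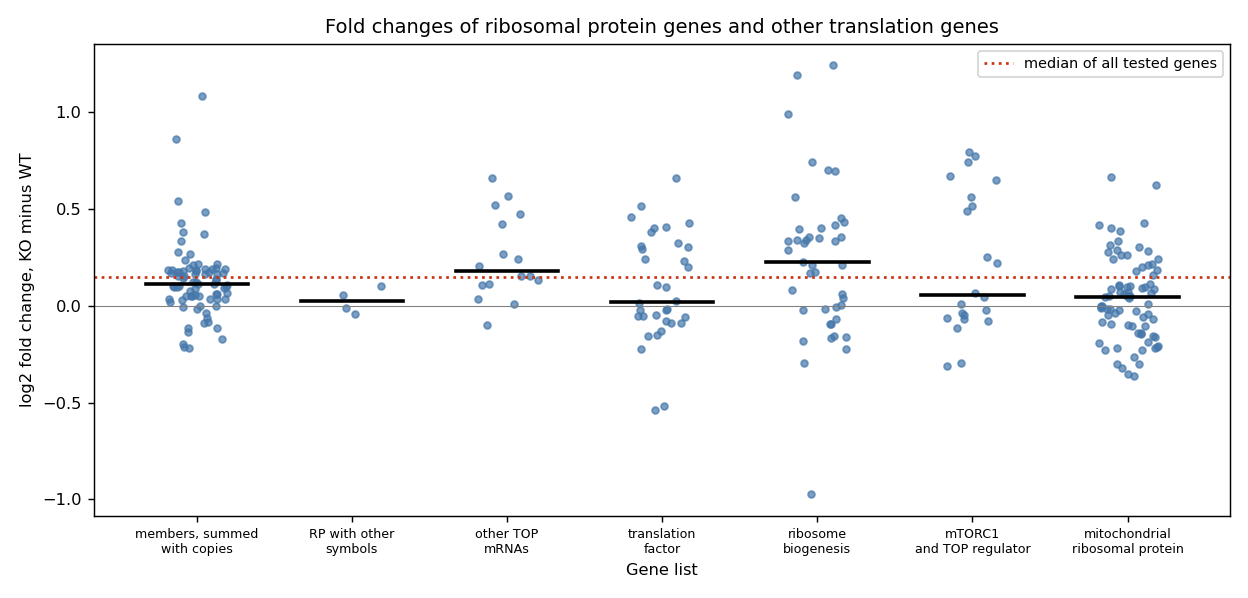
Log2 fold change, KO minus WT, of the member sets summed with copies and of 6 other lists of translation genes, with 1 point per gene or set, a black line at each median and a dotted line at the median of all tested genes (0.15). The medians lie between 0.017 and 0.22, and the points of the lists overlap.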

How the data were processed

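Liver RNA-seq of WT replicates 2 and 3 and *Usp21* KO replicates 1 and 3 was analysed. The authors estimated abundances with salmon and deposited TPM per gene. They also deposited HTSeq counts on mm10 scaled by TMM as CPM, a count-based signal. Tool versions, annotation release and strand setting are not given in the sources used here. Each CPM value is a whole multiple of 1 read (100% within 0.02 reads), which gave 148164, 110427, 145306 and 102898 reads. TPM keeps no depth. In the CPM table only 15 of the 82 members were above 0 in any library, so it served only as an alternative, where 0 is compatible with as many as 3 reads (20.0 to 27.7 CPM), for counting error only. The 2 deposited log-scale tables were not used, and 0 columns were left unmapped.

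Genes whose mean reached 1 TPM were fitted on log2(TPM + 1), which understates changes of low genes, with limma 3.58.1 (R 4.3.3, eBayes with trend, prior degrees of freedom 3.62). Alternatives used edgeR 4.0.16 and DESeq2 1.42.0 on recovered reads, other pseudocounts, filters and scalings, sums with pseudogenes or copies, and each library left out. Copies were found by shared stretches of 31 bases, and pairs aligned with Biopython 1.88 (Python 3.11.15). Scripts were tested on simulated data. The members and lists were chosen with earlier results of these data known. Named members are the highest and lowest in mean of each class, the 6 highest and 6 lowest fold changes, those with an unadjusted p under 0.05, those whose pseudogenes held at least 20% of the signal, and *Rps6*, *Rps19*, *Rpl5*, *Rpl11* and *Rplp0*. From each other list the highest and lowest fold change are named. *Rpl21*, *Rpl22*, *Rpl27a*, *Rps20*, *Rps29*, *Fau*, *Rpl36al*, *Pabpc1* and *Larp1* were added after their values were seen. Of the listed genes outside the members, 1 is not reported here. No label gives a batch. Each library is 1 mouse.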

Additional observations from a re-analysis of the deposited data

How the results depend on the processing

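No paired analysis was possible because no label pairs a WT mouse with a KO mouse. Members called numbered 0 under every alternative except without WT replicate 3, where *Rps27* was called (log2 fold change 6.81), so leaving out libraries gave 0 to 1. Upper quartile scaling gave a median log2 fold change of -0.020, a summed log2 difference of -0.028, 7 members higher and 14 lower without overlap, and median ratio scaling gave -0.062, -0.070, 5 and 24. The TMM-normalized CPM, which holds 15 members, gave -0.085, -0.37, 0 and 2. For these scalings and the CPM, the shares of all tested genes without overlap were not computed. Their counts without overlap are therefore not read as a result about the members. Summing near-identical copies left 5 members lower without overlap, where 10.9% of all genes so tested were lower. With libraries left out, the median ranged from -0.011 to 0.25 and the summed difference from -0.023 to 0.24. The members higher ranged from 21 to 58 and those lower from 12 to 31. The 58 compare with 57.4% of all tested genes and the 31 with 28%, and the shares at the lower ends were not computed. Of 380 values for 29 named members, 41 changed sign and 338 kept it below the threshold. When summed with -ps pseudogenes, signs changed for *Rpl10* (0.021), *Rpl10a* (0.17), *Rpl14* (0.38) and *Rpl9* (0.15). When summed with near-identical copies they changed for *Rpl10* (0.020), *Rpl10a* (0.17), *Rpl11* (0.18), *Rpl14* (0.38), *Rpl9* (0.15), *Rps12l1* (0.17), *Rps3a2* (0.19) and *Rps3a3* (0.19). Under upper quartile and median ratio scaling they changed for *Rpl13a* (-0.10, -0.14), *Rpl28* (-0.023, -0.065), *Rplp2* (-0.086, -0.13), *Rps16* (-0.060, -0.10) and *Rps27l* (-0.0029, -0.045). In the CPM table *Rpl10a* was 1.30. With libraries left out, ranges that crossed 0 were those of *Rpl10* (-0.45 to 0.40), *Rpl11* (-0.12 to 0.085), *Rpl13a* (-0.13 to 0.20), *Rpl14* (-0.21 to 0.19), *Rpl28* (-0.029 to 0.25), *Rpl29* (-0.94 to 0.090), *Rplp1* (-0.26 to 0.25), *Rplp2* (-0.066 to 0.16), *Rps16* (-0.16 to 0.30), *Rps2* (-0.19 to 0.0026), *Rps27* (-0.46 to 6.81), *Rps27l* (-0.040 to 0.30) and *Rps6* (-0.026 to 0.45). Beyond these, the cause of each shift was not tested.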
